A study of Mus musculus with 10 samples.

Results

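The 8 genes described here encode proteins of the smooth muscle contractile apparatus and of its actin anchors. They were Pdlim3, Acta2, Tagln, Myh11, Cnn1, Myl9, Tpm2 and Des, found by symbol among the 36115 genes of a count table from mouse retina. Of the 8, 7 were among the 18965 genes with enough reads to be tested, and Cnn1 was not. The set was chosen by gene symbol with results of the same genotype contrast known, and the measured values that chose it are the log2 fold changes of that contrast, the difference in Pdlim3 among them. Differences of the 8 genes between genotypes are therefore given as a description, and no p-value is attached to them.

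The libraries came from whole retinas of untreated mice aged 3 months on a C57BL/6 background, with 5 wild-type libraries (W1 to W5) and 5 from the line B6.129S2-Il6tm1Kopf/J (K1 to K5). That line carries a disrupted gene for interleukin-6 (Il6), a cytokine that signals through gp130 and STAT3. The allele is a germline change present in every cell, made in 129S2 stem cells and moved onto C57BL/6. The labels name no litter, sex or batch and do not say that the libraries came from separate animals, so the spread between them may be partly technical.

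In smooth muscle, myosin filaments pull on actin filaments when the regulatory light chain of myosin is phosphorylated. The actin filaments end in dense bodies, which hold alpha-actinin and PDZ-LIM proteins as the Z-discs of striated muscle do. In the retina these genes mark the smooth muscle cells of arterioles and, at lower levels, the pericytes of capillaries. Both cell types together are called mural cells. The transcription factor SRF, with its partner myocardin, drives most of the genes through a DNA element called the CArG box.

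Total counts ran from 30433373 to 38857374 reads per library. The targeted gene went against the labels, with 0 to 1 Il6 reads in each wild-type library and 3 to 7 in each library labelled knockout. Gene-level counts include parts of Il6 outside the disruption, so this checks nothing about the allele, and directions below are those of the libraries as labelled. Retinal markers were high in all 10 libraries: Gnat1, the rod transducin gene, had means of 12710 ± 1590 CPM in wild type and 12800 ± 1802 CPM otherwise (SD, n = 5). Of 15 retinal markers 1 was called, the rod arrestin gene Sag, which fell by 0.67 on the log2 scale (edgeR adjusted p = 0.00267, and 0.0623 without W5, K4 and K5), against 2.03% of all genes called. CPM are reads per 1e6 reads of the scaled library. Libraries W5, K4 and K5 stood apart in several of the 8 genes and W1 in genes of skeletal muscle, as described below, and 9 libraries share a second index that K5 lacks.

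Pdlim3 was the gene of the set that differed between the genotypes. It encodes a PDZ-LIM protein, also called ALP, that binds alpha-actinin at Z-discs and dense bodies. Pdlim3 (ENSMUSG00000031636.7, chromosome 8, 45885461 to 45919548, plus strand, GRCm38) had levels of 11.01, 4.79, 8.85, 4.195 and 7.61 CPM over W1 to W5. Over K1 to K5 they were 15.3, 20.5, 18.0, 24.7 and 19.4 CPM. All 5 libraries labelled knockout lay above all 5 of wild type, and within wild type W2 and W4 lay lowest. The means were 7.29 ± 2.84 and 19.6 ± 3.44 CPM (SD, n = 5), a log2 fold change of 1.43 ± 0.22 (SE). In whole tissue, more cells of a type and more RNA per cell cannot be told apart.

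**Figure D1:**
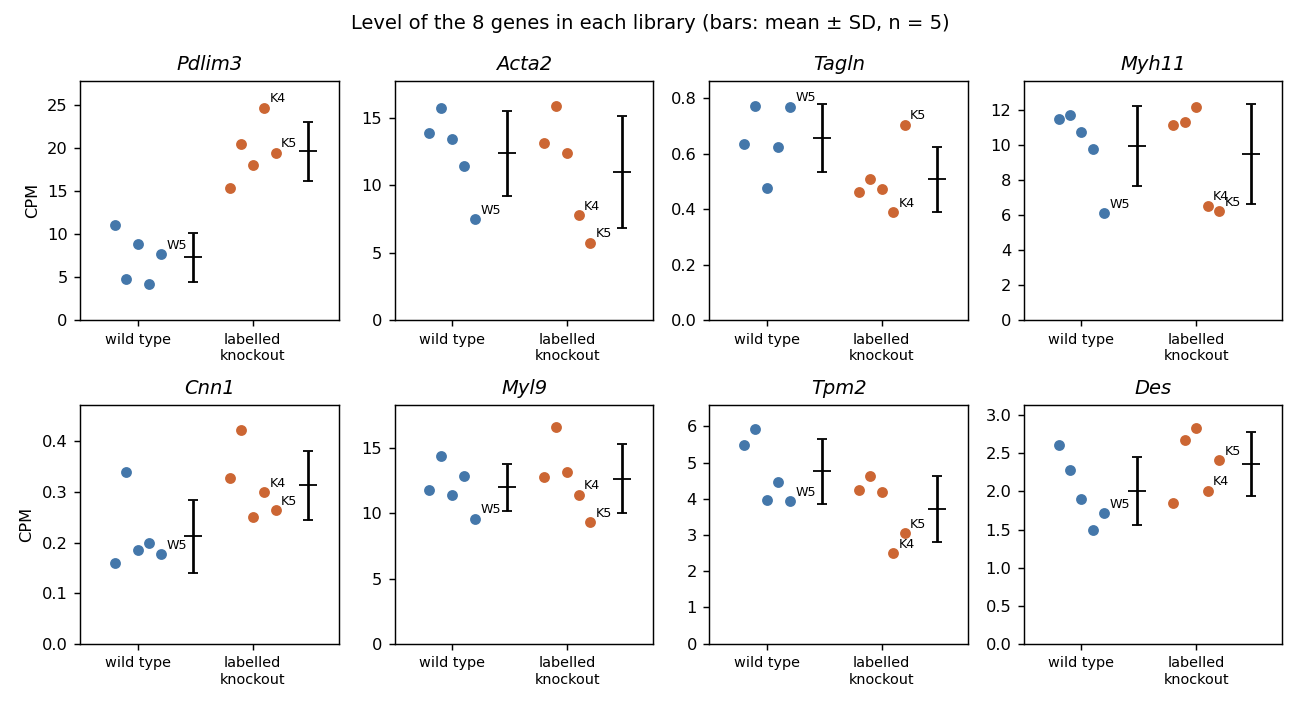
Level of each of the 8 genes in CPM (vertical axes, linear, from 0) in 5 wild-type libraries (blue) and 5 libraries labelled knockout (orange), with mean ± SD beside each group and W5, K4 and K5 named. The 2 groups are separate in Pdlim3 (4.195 to 11.01 against 15.3 to 24.7 CPM) and overlap in the other 7 genes.

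The 3 genes of the actin and myosin filaments themselves did not follow the genotype. Acta2, the smooth muscle alpha-actin (chromosome 19, 34241090 to 34255336), measured 13.9, 15.7, 13.4, 11.4 and 7.46 CPM across W1 to W5, and 13.1, 15.9, 12.4, 7.77 and 5.72 CPM across K1 to K5. Myh11, the smooth muscle myosin heavy chain (chromosome 16, 14194527 to 14291408), stood at 11.5, 11.7, 10.8, 9.76 and 6.13 CPM in wild type. Its levels in K1 to K5 were 11.1, 11.3, 12.2, 6.54 and 6.22 CPM. In both genes W5, K4 and K5 lay below all other libraries of either genotype.

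Myl9, the regulatory light chain whose phosphorylation switches contraction on (chromosome 2, 156775420 to 156781658), ranged from 9.59 to 14.4 CPM in wild type and from 9.30 to 16.6 CPM in the libraries labelled knockout. The log2 fold changes were -0.17 ± 0.24 for Acta2, -0.07 ± 0.21 for Myh11 and 0.08 ± 0.14 for Myl9 (SE, n = 5). Each was smaller in size than its SE. The sign of Myh11 turned positive when K4 or K5 was left out (0.04 and 0.05), and that of Myl9 turned negative without K2 (-0.04).

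The thin-filament regulators were lower in reads. Tpm2, a tropomyosin that lies along the actin filament (chromosome 4, 43514711 to 43523765), had 172, 192, 150, 179 and 133 reads in W1 to W5 and 156, 164, 150, 83 and 104 reads in K1 to K5. Its means were 4.76 ± 0.91 and 3.72 ± 0.90 CPM, a log2 fold change of -0.35 ± 0.19, and the groups overlapped. Cnn1, calponin, which binds actin and restrains myosin (chromosome 9, 22099216 to 22109630), had 5, 11, 7, 8 and 6 reads in wild type and 12, 15, 9, 10 and 9 reads in the libraries labelled knockout. Cnn1 did not reach the read minimum for testing, and its means were 0.212 ± 0.073 and 0.313 ± 0.069 CPM (SD, n = 5), with overlapping groups.

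Tagln, an actin-binding protein also called SM22 and a standard marker of smooth muscle (chromosome 9, 45929619 to 45936058), was scarce. It had 20, 25, 18, 25 and 26 reads in W1 to W5 and 17, 18, 17, 13 and 24 reads in K1 to K5, a log2 fold change of -0.36 ± 0.26. The libraries highest in Tagln reads included W5 and K5, which were among the lowest in Acta2. Tagln overlaps AC122273.2, a gene annotated on the opposite strand over 3627 bases of it, which had more reads than Tagln in every library (32 to 72). The sources used here do not give the strand setting of the counting, so reads of the 2 genes cannot be told apart with certainty. The end of Pcsk7 also overlaps Tagln, by 108 bases.

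Des encodes desmin, the intermediate filament that ties Z-discs and dense bodies together and also marks pericytes (chromosome 1, 75360329 to 75368579). It had 58 to 82 reads in wild type and 67 to 102 reads in the libraries labelled knockout, with means of 2.003 ± 0.45 and 2.36 ± 0.42 CPM. The log2 fold change was 0.24 ± 0.20 (SE, n = 5), and the groups overlapped. Gm15179 overlaps Des by 368 bases on the opposite strand and had at most 6 reads in a library.

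Across the set, 1 of the 7 tested genes passed an edgeR adjusted p of 0.05, higher in the libraries labelled knockout, where 0.859% of all tested genes did so in that direction and 2.03% in both. That gene was Pdlim3, for which the set was partly proposed, so nothing is read from the count. An unadjusted edgeR p under 0.05 was found for 1 of the 7, against 13.8% of all tested genes. Without overlap between the groups stood 1 of the 7, against 3.48% of all tested genes in both directions. The median log2 fold change of the 7 genes was -0.07, beside 0.0018 over all tested genes. In the authors' deposited table, the log2 fold change of Pdlim3 was 0.80, and those of the other 7 genes ran from -0.26 to 0.18. DESeq2 1.42.0 gave 1.425 for Pdlim3 and -0.35 for Tpm2 from the same counts, where the deposited values were 0.80 and -0.26. The reason for the smaller size of the deposited values was not tested.

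Measured per length, the genes span a wide range of levels. In wild type, Myl9 was highest at 10.3 ± 1.55 CPM per kb of exon (SD, n = 5), followed by Acta2 at 5.63 ± 1.43. Tpm2, Pdlim3 and Myh11 came next, at 1.64 ± 0.31, 1.42 ± 0.55 and 1.31 ± 0.30 CPM per kb, and these 3 neighbours did not differ beyond their spread. Des (0.53 ± 0.12), Tagln (0.33 ± 0.06) and Cnn1 (0.078 ± 0.027) were lowest. In the libraries labelled knockout Pdlim3 stood at 3.80 ± 0.67 CPM per kb, between Acta2 (5.002 ± 1.89) and Tpm2 (1.28 ± 0.31), and its spread overlapped that of Acta2. Lengths are those of all annotated exons of a gene, so the values shift where only some exons are used.

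The sum of the 7 genes other than Pdlim3, carried mostly by Acta2, Myh11, Myl9 and Tpm2, split the libraries along a line that was not the genotype. Their summed level was 40.8 to 51.2 CPM in W1 to W4 and 43.9 to 52.0 CPM in K1 to K3, and 29.8, 30.9 and 27.7 CPM in W5, K4 and K5. Acta2, Myh11 and Tpm2 were each lower in those 3 libraries than in any of the other 7. For Tpm2 the gap was small in W5 (3.938 CPM, against 3.965 in W3). Myl9 was lower in W5 and K5, while in K4 it equalled the lowest of the others to 3 digits (11.4 CPM). Pdlim3 did not take part: in W5, K4 and K5 it stood at 7.61, 24.7 and 19.4 CPM, of which K4 was the highest of all 10 libraries. Des and Cnn1 in those libraries lay within the range of the others. Tagln did so in W5 and K5 (0.770 and 0.704 CPM, against 0.463 to 0.773) and was lower only in K4 (0.390 CPM).

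**Figure D2:**
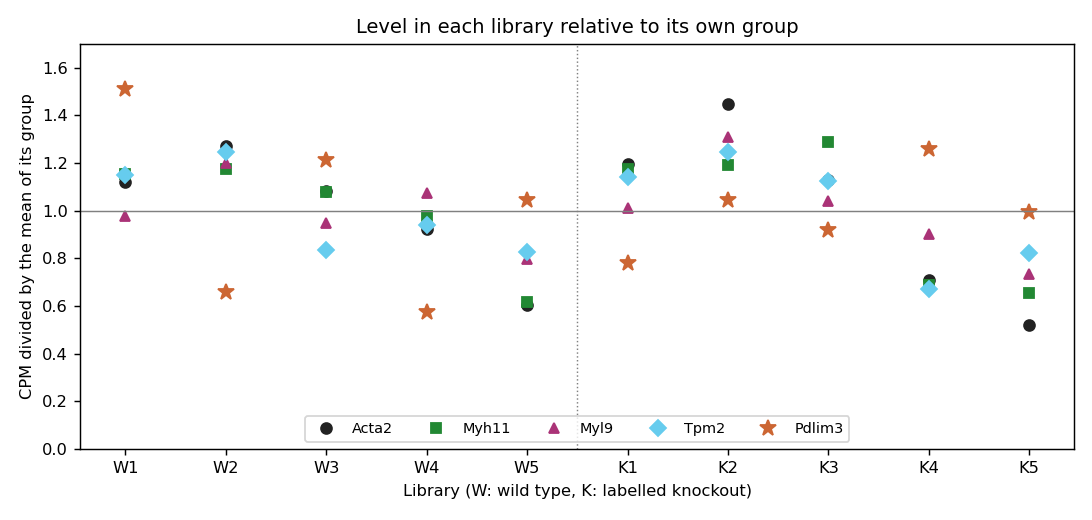
CPM of 5 genes in each library divided by the mean of the library's own group (vertical axis, linear; 1 is the group mean), for W1 to W5 and K1 to K5. Acta2, Myh11, Myl9 and Tpm2 lie below 1 together in W5, K4 and K5, where Pdlim3 (stars) lies close to or above 1.

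Because the libraries fall into these clusters, correlations between Acta2, Myh11, Myl9 and Tpm2 were taken over the 7 libraries that remain, after removing group means. The 6 pairs gave Pearson r from 0.03 (Myh11 with Myl9) to 0.655 (Acta2 with Tpm2). Acta2 with Tpm2 had a Spearman rho of 0.75 and permutation p of 0.125 for r and 0.0833 for rho over the 144 orders. No pair passed adjustment over the 6 (adjusted p from 0.388 to 0.938 for r and 0.5 to 0.931 for rho). The r of 5 of the 6 pairs lay between 0.517 and 0.655, and 7 libraries are few for a test of such values.

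No relation of Pdlim3 to the summed rest of the set was detected within genotypes, and 10 libraries are few for such a test. With group means removed over 10 libraries, Pdlim3 and the sum of the other 7 genes had a Pearson r of -0.217 (permutation p = 0.55, adjusted over 6 relations 0.66) and a Spearman rho of -0.236 (permutation p = 0.494). Without W4 and W1, the 2 libraries farthest from the median of Pdlim3, r was -0.491 (permutation p = 0.274), and without W5, K4 and K5 it was 0.101. Dividing Pdlim3 by Acta2 gave ratios of 0.795, 0.305, 0.661, 0.368 and 1.02 for W1 to W5. For K1 to K5 the ratios were 1.17, 1.29, 1.45, 3.17 and 3.40. The highest ratio of wild type was that of W5, the wild-type library low in Acta2.

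**Figure D3:**
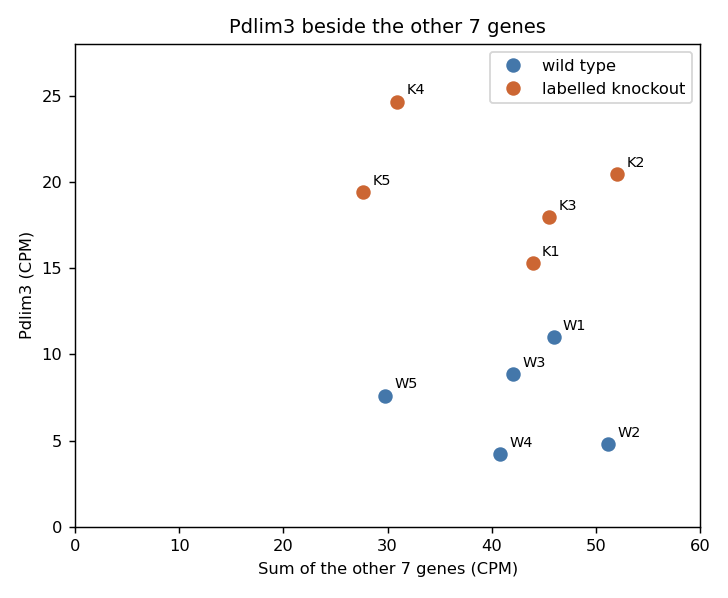
Pdlim3 (vertical axis, CPM) against the sum of the other 7 genes (horizontal axis, CPM) in each library, wild type in blue and labelled knockout in orange. The orange points lie above the blue ones at low and at high sums, and W5, K4 and K5 lie at the left, between 27.7 and 30.9 CPM.

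Markers of other vascular and eye tissues were read beside these levels. All 16 pericyte markers and all 15 endothelial markers were tested and edgeR called 0 of them, against 2.03% of all genes. DESeq2 called 0 and 1, and 4 and 5 had an unadjusted p under 0.05, against 13.8% of all genes. The log2 fold change was positive in 12 of the 16 (median 0.14) and in 13 of the 15 (median 0.19), where 50.4% of all tested genes were positive. That was the direction of Pdlim3, Myl9 and Des, and not of Acta2, Tagln, Myh11 and Tpm2. The markers of a list share their libraries and so their tissue composition, so their signs are not independent. The part of these markers in the level of Pdlim3 was not tested. No marker of either list was at 0. Leaving out Vtn, which takes most of the pericyte sum and is made by photoreceptors as well, pericyte markers summed to 191, 239 and 210 CPM in W5, K4 and K5 and to 194 to 239 CPM in the other libraries, so W5 lay just below that range. Rgs5, the pericyte regulator of G-protein signalling, had means of 107 ± 9.50 and 116 ± 8.51 CPM, and Vtn, vitronectin, of 968 ± 109 and 943 ± 156 CPM. Among endothelial genes the highest were the VEGF receptors Kdr (231 ± 32.2 and 180 ± 18.0 CPM) and Flt1 (142 ± 14.3 and 142 ± 11.9 CPM), and Kdr was 1 of the 2 with a negative log2 fold change.

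The summed level of the 8 genes was 37.4 to 57.0 CPM in wild type and 47.1 to 72.5 CPM in the libraries labelled knockout. Within genotypes its Pearson r was 0.005 with the pericyte sum, 0.484 with the endothelial sum, 0.303 with striated muscle and 0.23 with fibroblasts and sclera. The permutation p of these 4 relations were 0.991, 0.195, 0.461 and 0.543, with Spearman rho of -0.127, 0.491, 0.564 and 0.285 (permutation p of 0.747, 0.18, 0.123 and 0.447). None passed adjustment over the 6 relations (adjusted p of 0.585 to 0.991 for r). Without W5 and K5, the libraries farthest from the median, the 4 values of r were -0.154, 0.347, 0.6 and 0.314. The relation to pericyte markers turned on Vtn: without Vtn, Kdr and Rlbp1 in the sums, a choice made after the data were seen, r was 0.754 (permutation p = 0.0239, adjusted 0.0717).

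Of the 5 marker lists, the sum of the 8 genes had its highest r with that of the pigment epithelium, the cell layer that adheres to the outer retina. Within genotypes r was 0.756 (permutation p = 0.0159, adjusted 0.0954) and rho 0.818 (permutation p = 0.012, adjusted 0.0721), which misses the threshold. Without W5 and K5 it was 0.6 (permutation p = 0.137), so the relation rests partly on those libraries. All 11 pigment epithelium markers were tested and none was at 0. By edgeR and by DESeq2 0 were called, and 0 had an unadjusted p under 0.05. The sum of the list without Rlbp1, which Muller glia express strongly, was 40.4 CPM in W5, 234 in K4 and 221 in K5, against 118 to 518 CPM in the other wild-type libraries and 271 to 402 CPM in K1 to K3. Rlbp1 (552 ± 92.8 and 482 ± 36.6 CPM) and Ttr, transthyretin (93.5 ± 83.3 and 115 ± 28.4 CPM), were the highest of the list. The part of carried-over tissue in the levels of the smooth muscle genes was not tested.

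Striated muscle and connective tissue were low in sum, but W1 stood apart in genes of fast skeletal muscle. The 22 striated muscle markers summed to 45.9 to 74.0 CPM in wild type and 60.5 to 72.2 CPM in the libraries labelled knockout, and 11 of them were below the minimum for testing, among them the fast myosins Myh1, Myh2 and Myh4. Myh4 had 234 reads in W1 and 0 to 12 in the other 9 libraries, and the calcium pump Atp2a1 had 186 reads in W1 and 29 to 80 in the others, both named after their values were seen. W1 was also the wild-type library highest in Pdlim3 (11.01 CPM), and without W1 the log2 fold change of Pdlim3 was 1.62. Of the 11 tested edgeR called 0 and DESeq2 called 3, and 3 had an unadjusted p under 0.05, against 13.8% of all genes. The highest were Tnnt1, slow troponin T (17.0 ± 5.26 and 25.3 ± 3.55 CPM), and Pvalb, parvalbumin, which retinal neurons also express (11.9 ± 2.16 and 13.6 ± 0.81 CPM). Of 9 tested markers of fibroblasts and sclera 1 was called, Fmod, which encodes the collagen-binding fibromodulin (chromosome 1, 134037254 to 134048277). It rose by 1.24 ± 0.25 on the log2 scale, with means of 3.32 ± 1.02 and 7.86 ± 3.02 CPM (edgeR adjusted p = 0.0171, 0.0552 without K5 and between 3.06e-05 and 0.149 across the alternatives). Fmod lies on the same chromosome as Lmod1, described below, which starts at 135324807 and was also called higher. Any link between the 2 was not tested. The highest of that list in wild type were Pdgfra (7.38 ± 1.09 and 7.82 ± 1.94 CPM) and Col1a1 (4.74 ± 1.06 and 3.51 ± 2.19 CPM).

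Among other genes of the smooth muscle apparatus 1 passed the adjusted threshold. Of 28 tested genes of contraction, its control and its transcription factors, 1 rose, 0 fell and 27 did not pass (0.859% and 1.17% of all tested genes rose and fell), and the median log2 fold change was 0.01. An unadjusted p under 0.05 was found for 7 of the 28, against 13.8% of all genes, and these included Cacna1c, the L-type calcium channel (log2 fold change -0.33 ± 0.13, edgeR adjusted p = 0.252), and vinculin, Vcl (-0.28 ± 0.12, edgeR adjusted p = 0.298), both named after their values were seen. Also among the 7, Sncg (-0.40 ± 0.15, edgeR adjusted p = 0.213), Adra1a and Myocd were lower. Ppp1r14a was higher (0.41 ± 0.19, edgeR adjusted p = 0.357). They too were named after their values were seen. The gene that passed the adjusted threshold was Lmod1, leiomodin, which starts new actin filaments in smooth muscle (chromosome 1, 135324807 to 135368065). Its range was 1.95 to 4.56 CPM over W1 to W5, below 5.96 to 10.3 CPM over K1 to K5 (log2 fold change 1.55 ± 0.22, edgeR adjusted p = 0.000905). Lmod1 was highest in W5 within wild type and in K5 and K4 within the labelled knockout, the libraries lowest in Acta2. The highest of the list were Kcnma1, the BK potassium channel (234 ± 37.7 and 259 ± 32.5 CPM), Mylk, myosin light chain kinase (168 ± 35.0 and 153 ± 12.7 CPM), and Myl6, the essential light chain (144 ± 6.33 and 152 ± 8.39 CPM). Srf, which encodes the factor named above as driving most of the genes, stood at 32.0 ± 1.39 and 29.9 ± 1.85 CPM and did not pass.

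Of 28 tested genes of Z-discs, dense bodies and LIM proteins, 2 rose, 0 fell and 26 did not pass, where 0.859% of all tested genes rose and 1.17% fell. An unadjusted p under 0.05 was found for 5 of the 28, against 13.8% of all genes. DESeq2 called 3 of the list, the third being Csrp3, which was lower and is named after its values were seen. Csrp3 stood at 3.04 ± 1.12 and 1.59 ± 0.62 CPM, a log2 fold change of -0.93 ± 0.28. Its edgeR adjusted p was 0.128, and the lowest of the alternatives was 0.0298. The 2 that rose were the PDZ-LIM genes Pdlim1 and Pdlim4. Pdlim1, also called CLP36 and an alpha-actinin partner on stress fibres (chromosome 19, 40221173 to 40271842), measured 1.43, 1.95, 0.925, 0.999 and 1.81 CPM across W1 to W5, and 3.21, 2.46, 2.87, 3.03 and 2.88 CPM across K1 to K5. Pdlim4, also called RIL (chromosome 11, 54054928 to 54069014), measured 7.51, 7.11, 6.66, 6.27 and 6.37 CPM in wild type, and 8.80, 9.88, 10.8, 8.97 and 10.3 CPM in the libraries labelled knockout. The groups did not overlap in either gene. The log2 fold changes were 1.03 ± 0.22 for Pdlim1 and 0.52 ± 0.11 for Pdlim4 (SE, n = 5), with edgeR adjusted p of 0.0222 and 0.0173.

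These 2 calls were close to the threshold. Pdlim1 lost its call without W4, K3, K4 or K5 (adjusted p 0.0503 to 0.0632) and Pdlim4 without K3 or K5 (0.0575 and 0.0509), so that without K3 or without K5 the list had 0 calls. The alternatives gave adjusted p between 0.000216 and 0.116 in Pdlim1 and between 0.000135 and 0.149 in Pdlim4. Among the other PDZ-LIM genes, Pdlim2 had a log2 fold change of 0.50 ± 0.24 and Ldb3, also called ZASP or cypher, 0.54 ± 0.26, with edgeR adjusted p of 0.379 and 0.376. Pdlim5 and Pdlim7, which carry several LIM domains, stood at 52.5 ± 3.46 and 52.5 ± 3.26 CPM and at 24.8 ± 1.11 and 24.6 ± 1.62 CPM. The highest of the list were the alpha-actinin Actn4 (185 ± 3.70 and 201 ± 4.91 CPM, log2 fold change 0.12, edgeR adjusted p = 0.36), filamin Flna (100.2 ± 18.1 and 92.7 ± 9.86 CPM) and Fhl1 (87.1 ± 10.1 and 86.8 ± 10.03 CPM). In Actn4 the groups did not overlap either, as in 1.76% of all tested genes with the labelled knockout higher.

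**Figure D4:**
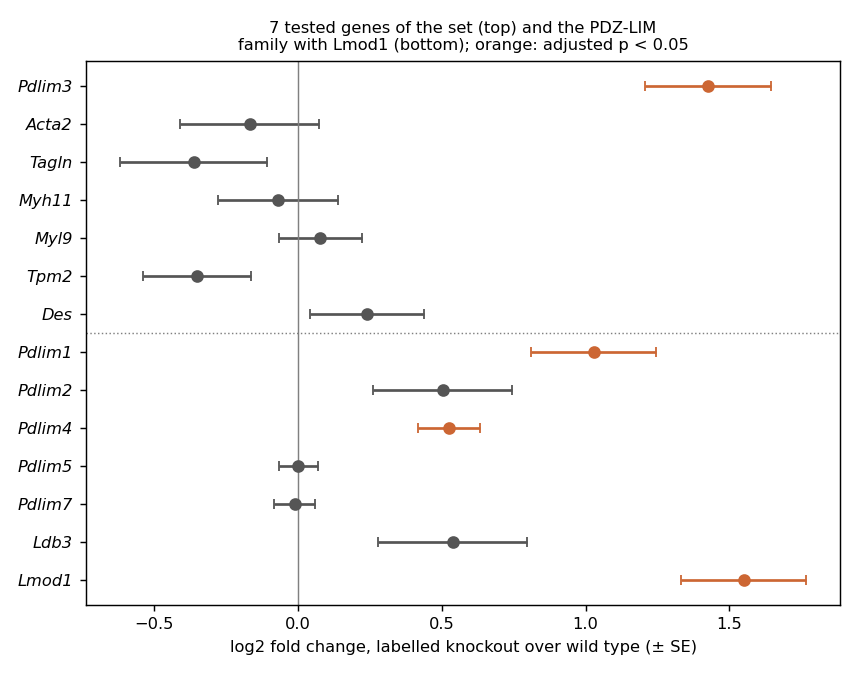
Log2 fold change of the libraries labelled knockout over wild type (horizontal axis, points with SE, n = 5 libraries a group) for the 7 tested genes of the set, above the dotted line, and for the other PDZ-LIM genes with Lmod1, below it. Pdlim3 (1.43), Lmod1 (1.55), Pdlim1 (1.03) and Pdlim4 (0.52) are in orange, and the other smooth muscle genes lie between -0.36 and 0.24.

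The relatives of the set were near the shares of all genes. Of 16 near copies 0 were called by edgeR or DESeq2, against 2.03% of all genes by edgeR, and 3 had an unadjusted p under 0.05, against 13.8%. Of the 16, 11 had a positive log2 fold change, with a median of 0.03. The highest were the cytoplasmic actins Actb (431 ± 40.5 and 484 ± 37.8 CPM) and Actg1 (264 ± 25.2 and 266 ± 28 CPM) and the intermediate filament gene Vim (165 ± 23.8 and 169 ± 17.4 CPM). Acta1 and Actc1, the skeletal and cardiac actins that are nearly identical to Acta2 in coding sequence, stood at 4.04 ± 1.72 and 2.45 ± 0.63 CPM and at 3.17 ± 0.58 and 4.42 ± 0.65 CPM. How reads that match several of these copies were counted is not given, so the levels of the actins are uncertain to that extent.

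The genes beside Pdlim3 on chromosome 8 were examined as well. Within 1 Mb of Pdlim3 28 genes were tested and 1 was called, against 2.03% of all genes. It was Gm45512, a short unprocessed annotation on the same strand that begins 1.32 kb after the end of Pdlim3 (45920872 to 45922424), named here after its values were seen. It had 5, 5, 3, 3 and 5 reads in W1 to W5 and 12, 10, 33, 30 and 23 reads in K1 to K5, and the groups did not overlap. It rose by 2.32 ± 0.43 on the log2 scale (edgeR adjusted p = 0.00937, and 0.131 without W5, K4 and K5). Sorbs2, a Z-disc and stress fibre adaptor on the other side of Pdlim3 at a distance of 57.6 kb, stood at 62.3 ± 3.56 and 65.0 ± 4.26 CPM and did not pass. The other tested genes up to 79.75 kb after the end of Pdlim3 were named after their values were seen. Ccdc110 (log2 fold change 0.94 ± 0.41, SE, 3 to 17 reads) and 1700029J07Rik (0.66 ± 0.17) were higher. Ufsp2 and Lrp2bp were also higher (0.21 ± 0.07 and 0.32 ± 0.14), and Ankrd37 was not (-0.04 ± 0.11). The groups overlapped in each, and none of them passed the threshold. Any link of these shifts to Pdlim3 was not tested.

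The share of calls near the 8 genes was close to that of all genes. Within 1 Mb of all 8 genes together 273 neighbours were tested, 3 of them called higher and 2 lower, against 0.859% and 1.17% of all tested genes. Beside Gm45512 these were the interferon-induced Ifit1 and Ifit3 near Acta2, both higher, and Sla2 near Myl9 and Gm37733 near Des, both lower. There were none within that distance of Tagln, Myh11, Cnn1 or Tpm2.

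**Figure D5:**
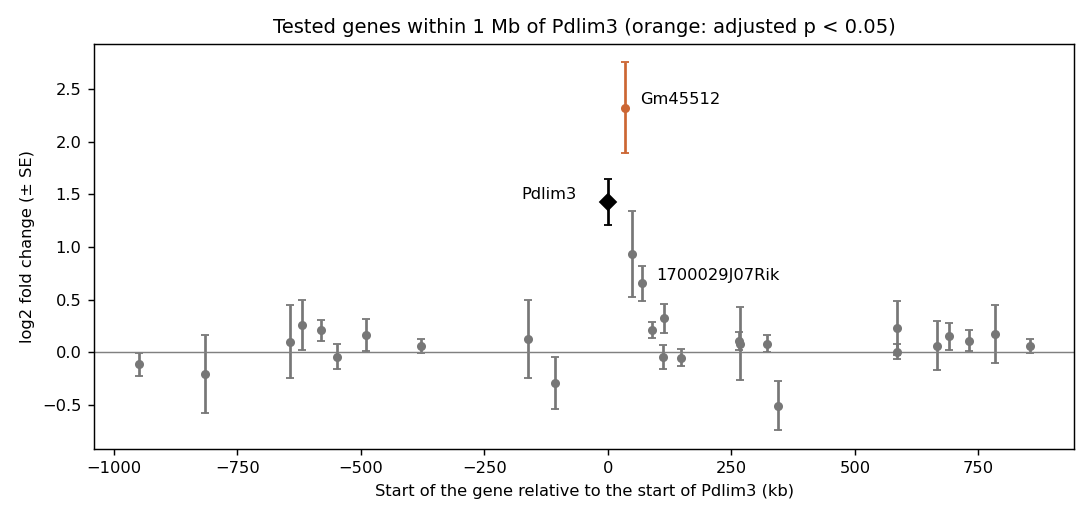
Log2 fold change (vertical axis, points with SE) of the 28 tested genes within 1 Mb of Pdlim3, by the distance of their start from the start of Pdlim3 (horizontal axis, kb), with Pdlim3 as a black diamond. Gm45512, in orange, lies next to Pdlim3 at 2.32, and the other neighbours lie between -0.51 (Actg-ps1) and 0.94 (Ccdc110).

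Sequences before the start of Acta2, Myl9 and Pdlim3 are shown as a description, for genes picked after their levels were seen. Acta2 and Myl9 were both lowest in W5 and K5. Over the 7 libraries without W5, K4 and K5 their Pearson r was 0.634 (permutation p = 0.194, adjusted 0.388). Any part of the CArG box in these levels was not tested. RefSeq promoter windows (GRCm38.p6, 250 bases before to 50 after the start) were found for 6 of the 8 genes, all but Tagln and Myh11. Capitals mark the CArG box, read as CC and GG around a core of A or T, with at most 1 other base in the core. The element reads as the same class on both strands, and no match overlapped another. Each stretch runs 5′ to 3′ on the strand of the gene and ends before the first annotated base of the gene.
Myl9, chr2:156775214-156775419, plus strand: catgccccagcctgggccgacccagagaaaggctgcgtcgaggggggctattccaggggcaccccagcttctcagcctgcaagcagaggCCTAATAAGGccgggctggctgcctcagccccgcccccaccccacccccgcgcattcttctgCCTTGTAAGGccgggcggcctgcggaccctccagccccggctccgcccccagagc
Acta2, chr19:34255374-34255623, minus strand: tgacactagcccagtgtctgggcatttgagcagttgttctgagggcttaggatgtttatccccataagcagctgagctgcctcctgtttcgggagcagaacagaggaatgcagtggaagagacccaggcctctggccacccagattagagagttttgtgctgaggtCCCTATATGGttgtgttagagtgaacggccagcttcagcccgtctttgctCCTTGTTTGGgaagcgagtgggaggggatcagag
Pdlim3, chr8:45885237-45885460, plus strand: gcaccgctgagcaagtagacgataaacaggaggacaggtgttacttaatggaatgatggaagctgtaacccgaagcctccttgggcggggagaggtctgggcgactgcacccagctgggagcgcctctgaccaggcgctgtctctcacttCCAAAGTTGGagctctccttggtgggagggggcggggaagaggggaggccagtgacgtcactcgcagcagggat

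With an exact core, 1 of the 6 windows held a CArG box, that of Myl9, where 1.63% of all 32851 windows did. The match in Myl9 begins at position -161 from the RefSeq start. Allowing 1 other base, 3 of the 6 windows held one, those of Myl9, Acta2 and Pdlim3, against 9.98% of all windows. The further matches begin at -99 in Myl9, at -84 and -34 in Acta2 and at -100 in Pdlim3. Cnn1, Tpm2 and Des had no match in this window. The stretch before the first annotated base was 213 bases long in Cnn1, 250 in Des and only 39 in Tpm2, so absence there carries little weight in Tpm2. A match is a description of these letters, and binding of SRF was not measured.

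Genes whose levels ran most like those of the set were looked up among 15401 genes with a mean of at least 1 CPM, as a description. With group means removed, the genes most like the sum of the 8 were Bves, a membrane protein of muscle and epithelia (r = 0.967 over 10 libraries), 2900026A02Rik (0.945), the potassium channel Kcna5 (0.942), Mgp, the matrix Gla protein made by vascular smooth muscle (0.933), and Rab20 (0.932). Mgp stood at 7.04, 8.75, 6.03, 5.17 and 4.12 CPM in W1 to W5 and 7.57, 11.04, 10.2, 8.52 and 6.25 CPM in K1 to K5, lowest in W5 and K5 within their groups. None of these 5 was called. Without W5, K4 and K5 their r lay between 0.815 (Rab20) and 0.922 (Bves). The genes were picked over libraries that include these 7, so high values there follow in part from the choice and check nothing. Over raw levels the 5 were Mgp (0.952), Rab20 (0.941), Smap2 (0.928), Plscr1 (0.913) and Mmd2 (0.903).

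The genes most like Pdlim3 were others. With group means removed they were Gm26688 (r = 0.934), Dnajc17 (0.919), Pafah1b3 (0.912), Lsm11 (0.907) and Mrpl22 (0.902), none of them a muscle gene and none called. Dnajc17 stood at 14.0, 11.5, 14.3, 11.4 and 14.1 CPM in W1 to W5, with the same low values in W2 and W4 as Pdlim3, and at 14.5 to 16.0 CPM in K1 to K5. Over raw levels, where the difference between genotypes counts, the 5 were Dnajc17 (0.954), Zfas1 (0.953), Gm16551 (0.953), Fcer1g (0.948) and Tldc1 (0.93). Of these Zfas1, a small nucleolar RNA host, and Tldc1 were called, with edgeR adjusted p of 0.0141 and 0.035. The points share their libraries, and so their depth and tissue composition.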

How the data were processed

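Whole-retina RNA was sequenced in 10 libraries, 5 for each genotype label. Per the labels' protocols, retinas were flash frozen and RNA was taken with Trizol. Per the submitters' processing notes, the authors worked with GRCm38.p5, STAR 2.5.3a, featureCounts 1.15.2, DESeq2 1.14, FastQC and bcl2fastq, whose roles are not stated. Strand and multi-mapping settings are not given in the sources used here. The deposited table holds raw counts per gene and, per the file headers, the authors' comparison of knockout over control. Of that comparison, the deposited log2 fold changes were used for the members. The deposited p-values were not used for any result.

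Members and gene lists were chosen with earlier results of these data known. Genes were kept with filterByExpr (minimum count 10, minimum total 15), scaled with TMM (factors 0.954 to 1.04) and tested with the quasi-likelihood test of edgeR 4.0.16, with genotype as the only term and Benjamini-Hochberg adjustment over 18965 genes. The SE is the absolute log2 fold change over the square root of F. The procedure was tested on simulated data. Replicate pairs differed by more than sampling noise (chi-square per degree of freedom at least 9.86). Relations used log2 CPM (prior count 2) with group means removed and permutation of all 14400 orders within groups, two-sided. Exon lengths came from GENCODE M21 for all 8 members. Genes named were all members, called genes and the 2 or 3 highest of each list, the PDZ-LIM family, Lmod1, overlapping genes and the 5 genes most like Pdlim3 or the summed set. Srf, Sorbs2, Acta1, Actc1 and genes so marked in the text were added after their values were seen. The level of 1 gene that the rule names is not reported here. Alternatives were RLE and upper-quartile factors, DESeq2 1.42.0, limma-voom 3.58.1, 2 filters and leaving out libraries.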

Additional observations from a re-analysis of the deposited data

Results flagged for a closer look

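In Cnn1, W2 lay far above the rest of wild type, at 0.34 CPM (11 reads) against 0.159 to 0.2 CPM, where its gap to the nearest library was large beside the range of the group. W2 stood apart in the same way in the summed markers of fibroblasts and sclera, at 39.1 CPM against 24.1 to 27.0 CPM. Of 38 groups of 5 libraries examined in this way 2 were flagged, and chance flags about 1 in 20.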

How the results depend on the processing

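The log2 fold change of Pdlim3, for which the set was partly chosen, was 1.28 to 1.62 over 17 alternatives, given as a description. No paired analysis was possible because the labels give no replicate numbers, and the numbers used here follow accession order and tie no libraries across genotypes. An alternative added after seeing the data, without W5, K4 and K5, gave log2 fold changes of 0.029 for Acta2 and 0.086 for Myh11, against -0.17 and -0.07. Without 1 library, Myh11 ran from -0.202 to 0.0490 (above 0 without K4 or K5) and Myl9 from -0.0403 (without K2) to 0.169. Without W5, K4 and K5 together, the Z-disc list had 0 calls and the marker lists had 0, against 2 and 1. Over the transcriptome, leaving out these libraries gave 48 genes higher and 129 lower, against 163 and 222. The counts were 298 and 406 without a low-count filter and 321 and 442 with DESeq2, and those settings called 6 and 5 marker genes. Each of those settings called 3 genes of the Z-disc list. Leaving out 1 library gave 71 (K4) to 253 (W2) genes higher, with 84 without K5 and 93 without K3, and 140 (K4) to 289 lower. It gave 0 (K3 or K5) to 2 calls in the Z-disc list and 0 (K5) to 5 (W2) in the marker lists, with 2 without W1 or W4. The relation of the 8 genes to pericyte markers (r of 0.005) was -0.127 by Spearman, -0.0654 with upper-quartile factors, -0.154 without the 2 farthest libraries, -0.173 without W5, K4 and K5, and -0.213 to 0.197 without 1 library. That of Pdlim3 to the other 7 genes turned to 0.101 without W5, K4 and K5. The relation to pigment epithelium markers passed the threshold under 2 changes to the sums, both chosen after the data were seen. These were sums without Vtn, Kdr and Rlbp1 (0.766, adjusted permutation p = 0.0396) and the 7 genes other than Pdlim3 (0.732, adjusted permutation p = 0.0467). It also passed without W2, but not without any other single library (r of 0.643 to 0.885 without 1 library). Without W5, K4 and K5 it did not pass (0.593, adjusted permutation p = 0.729). With both changes to the sums r was 0.705 (adjusted permutation p = 0.00625), and 0.659 and 0.613 with pericyte and endothelial markers (adjusted permutation p = 0.0802 and 0.0925). Allowing 1 other base in the CArG core moved the windows with a match from 1 to 3. The cause of these changes was not tested.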

Other observations

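Myocd, which encodes myocardin, the SRF partner of smooth muscle, was named after its values were seen. It stood at 0.796, 0.742, 0.608, 0.899 and 0.533 CPM in W1 to W5 and 0.490, 0.593, 0.529, 0.240 and 0.235 CPM in K1 to K5. It was lowest in W5 within wild type and in K4 and K5 within the labelled knockout, as Acta2 and Myh11 were, and it was not called (log2 fold change -0.77 ± 0.31, edgeR adjusted p = 0.27).

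Also named after its values were seen, 1700029J07Rik, which begins 34.1 kb after the end of Pdlim3 on the opposite strand, stood at 13.7 to 22.6 CPM in wild type and 20.6 to 36.9 CPM in the libraries labelled knockout. Its log2 fold change was 0.66 ± 0.17, and it missed the threshold (edgeR adjusted p = 0.0585, with alternatives between 0.00254 and 0.339). Like Pdlim3, it was lowest in W2 and W4.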
